A study of Sparus aurata with 16 samples.

Results

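The white skeletal muscle of starved juvenile gilthead sea bream (*Sparus aurata*) was compared with that of juveniles fed diet LLH. The fish were chosen by the tissue and feeding group that the sample labels name, which gave 4 starved fish and 4 LLH fish, or 8 of the 32 hybridised fish channels of the series. Starved fish received no food for 23 days. Fish fed LLH received 25 g/kg body weight a day over the same time. A diet name lists the level of protein, then lipid, then carbohydrate as high (H), medium (M) or low (L), so that LLH was a low-protein, low-lipid and high-carbohydrate feed. The series also holds muscle of 4 fish each on the high-protein diet HLL and the high-lipid diet MHL, and the liver of all 4 groups. The comparison sets the absence of food against 1 diet, and it does not isolate the effect of carbohydrate.

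Each 2-colour array carried labelled cRNA of 1 fish in Cy5 and of 1 fish of another group in Cy3. Starved and LLH fish each had 2 fish in either dye. They lay on 6 of the 8 muscle arrays, of which 2 paired a starved fish with an LLH fish (starved fish 1 with LLH fish 4, and starved fish 2 with LLH fish 3). All 8 muscle arrays were on 1 slide and the liver arrays on another. Between 59.2 and 63.6% of the spots were well above background in starved fish and between 57.9 and 65.3% in LLH fish, and none was saturated in muscle. Precision is limited by how few arrays there were. Over all sequences, dim ones included, the median SD between fish of a group was 0.107 on the log2 scale in starved and 0.092 in LLH fish. The root mean square deviation of a fish from its group mean was larger, at 0.196 to 0.232 in starved and 0.181 to 0.221 in LLH fish. RNA came from pieces of whole tissue, in which fewer cells of a type and less RNA per cell cannot be told apart. P values measure the spread between fish of a group. In the muscle tests this spread was estimated over all feeding groups together, HLL and MHL included.

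White muscle makes up most of the fillet of a fish and powers bursts of swimming by glycolysis. It is also the main protein store of the body. When food is withheld, its proteins can be broken down, and nitrogen from their amino acids is carried to the liver largely as alanine. Alanine aminotransferases catalyse the reversible transfer of an amino group between alanine and glutamate, with pyruvate and 2-oxoglutarate as the keto acids, and so link amino acids to carbohydrate metabolism.

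Long-term starvation was accompanied by widespread differences in muscle transcript levels. Of 25222 sequences with a value in all muscle channels, 3727 (14.8%) were significantly higher and 3389 (13.4%) significantly lower in starved than in LLH fish (limma on log2 intensities of separate channels, 4 fish in each group, adjusted P value under 0.05). At an unadjusted P value under 0.05 the number was 9137. Higher sequences made up 52.4% of the significant ones. With median centring in place of Loess normalisation within arrays they made up 66.2% (4544 higher and 2318 lower), so the balance of rises and falls is not fixed by these data.

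Most differences were small. The median difference was 0.60 on the log2 scale among higher sequences and -0.58 among lower ones. At least 2-fold higher were 879 sequences (3.49%), and at least 2-fold lower were 733 (2.91%). At least 4-fold higher were 147 and at least 4-fold lower 148. At 8-fold the numbers were 22 and 46, and at 64-fold they were 6 and 1. The 4 starved fish lay entirely above the 4 LLH fish in 3142 of the 12380 sequences with a difference above 0 (25.4%) and entirely below them in 3185 of the 12842 with a difference below 0 (24.8%). Of these, 2880 and 2703 were among the significant sequences.

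**Figure D1:**
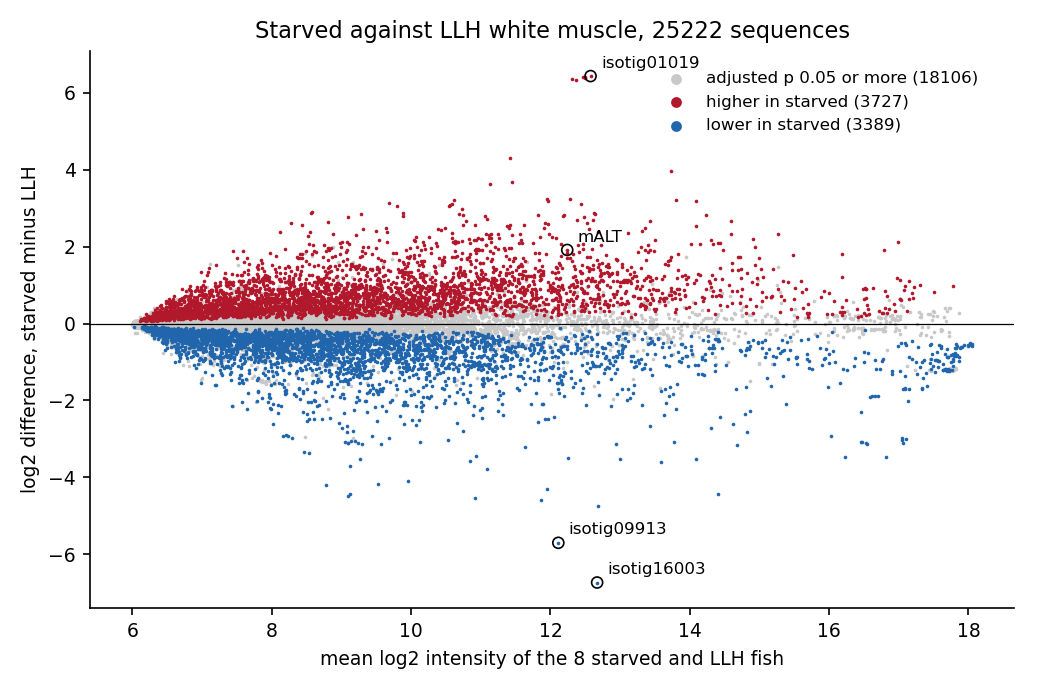
Each point is 1 of 25222 sequences in white muscle, with the mean log2 intensity of the 8 starved and LLH fish on the x axis and the log2 difference of starved minus LLH on the y axis. Colours mark the 3727 significantly higher and 3389 significantly lower sequences, and the sequences singled out as isotig01019 and isotig16003 lie at 6.43 and -6.73.

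The share of significant sequences rose with signal. When the sequences were divided by mean log2 intensity into 10 sets of equal size, 0.0793% were significant in the dimmest set (up to 6.11) and 61.2% in the brightest (from 10.89 upwards). Significant differences of at least 2-fold were found in 0% of the 5 dimmest sets and in 27.0% of the brightest. An offset of 50 added to the intensities shrinks the differences of dim sequences. Of the 15279 sequences well above background in all 8 fish, 6617 were significant, and of the 5252 above it in none, 12 were.

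Among the 8 entries that the array lists by symbol, only mALT, the mitochondrial alanine aminotransferase, differed significantly, and it was higher in starved muscle. Its log2 intensity was 13.21, 13.19, 13.27 and 13.16 in starved fish 1 to 4. In LLH fish 1 to 4 it was 11.35, 11.29, 11.08 and 11.37. The lowest starved fish thus stood 1.79 above the highest LLH fish, and the fish within a group lay close together (SD 0.05 in starved and 0.13 in LLH fish, n = 4). The log2 difference was 1.91 with a standard error of 0.10, a 3.77-fold rise (limma, adjusted P value 6.58e-08), against 14.8% of all sequences significantly higher. The 2 probes of mALT gave 1.89 and 1.94, and 0.69% of the sequences had a larger increase.

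The cytosolic alanine aminotransferases cALT1 and cALT2, which catalyse the same reaction outside mitochondria, were not significantly different. The log2 intensity of cALT1 was 12.05, 11.85, 11.75 and 12.03 in starved fish and 12.58, 12.25, 12.05 and 12.90 in LLH fish. The ranges of the groups met at 12.05. The log2 difference was -0.53 (95% confidence interval -1.08 to 0.02) and was not significant by limma (adjusted P value 0.153). For cALT2 it was -0.53 (-1.08 to 0.01) with an adjusted P value of 0.147. The values of the 2 entries differed by at most 0.13 in any of the 16 muscle channels, so their transcripts may share signal and count as 1 uncertain observation. Without normalisation between arrays both fell significantly (-0.57 for cALT1 and -0.58 for cALT2, limma, adjusted P values 0.0095 and 0.0079), and cALT1 did so with only the 6 arrays that carried a starved or an LLH fish (-0.52, adjusted P value 0.0412). The difference shrank to -0.15 for both with median centring within arrays (adjusted P values 0.675 and 0.684) and to -0.34 for both without LLH fish 4 (0.449 and 0.442).

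**Figure D2:**
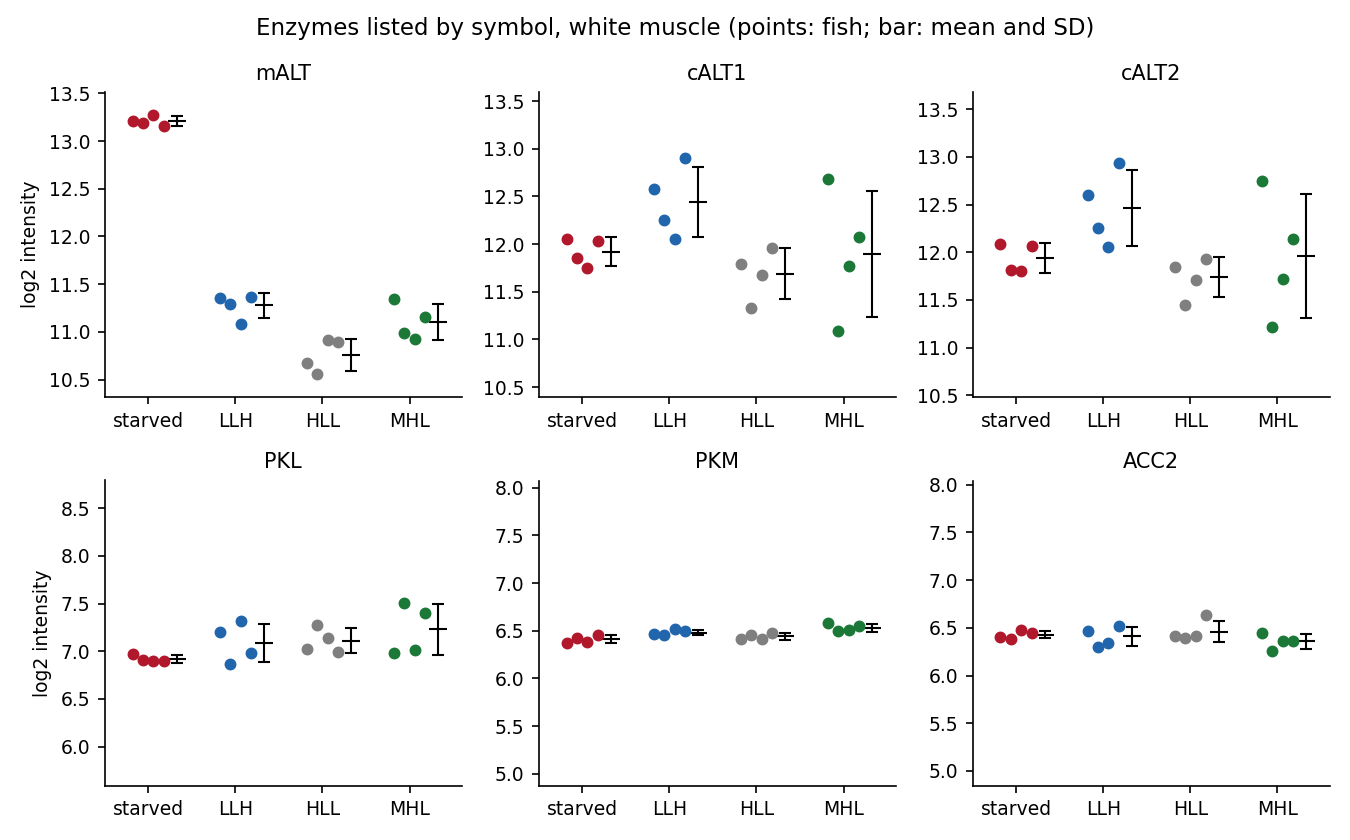
Log2 intensity (y axis) of 6 enzymes listed by symbol in the white muscle of starved, LLH, HLL and MHL fish (x axis), with 1 point per fish and the mean and SD beside each group of 4. For mALT the 4 starved fish sit between 13.16 and 13.27 and all 12 fed fish below them, while starved and LLH fish meet at 12.05 for cALT1, and all y axes span the same range of log2 units.

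Pyruvate kinase catalyses the last step of glycolysis, and PKL and PKM are named after its liver and muscle forms. PKL had log2 intensities of 6.97, 6.91, 6.90 and 6.90 in starved fish and 7.20, 6.87, 7.32 and 6.98 in LLH fish, with overlap between the groups. Its log2 difference was -0.17 (95% confidence interval -0.42 to 0.07, limma, adjusted P value 0.322). Its probes disagreed, at -0.37 and 0.02, and without LLH fish 3 the difference was -0.08. PKM was dim, from 6.37 to 6.46 in starved and from 6.45 to 6.52 in LLH fish, and in each of these fish only 50 or 75% of its spots were well above background. Its log2 difference of -0.08 (-0.14 to -0.02) just missed the threshold in limma (adjusted P value 0.0506) and passed it in 6 of the other processing settings, with adjusted P values of 0.0182 to 0.0489 and values down to -0.62 with processed scanner signals. It also passed without starved fish 4 (-0.10, adjusted P value 0.0261).

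The symbols PKL and PKM give the only check of tissue identity against named markers. In a joint normalisation of both tissues, PKL lay between 6.92 and 7.38 in starved and LLH muscle and between 9.02 and 10.44 in the liver of the same groups. PKM, the muscle form by its name, was between 6.36 and 6.51 in muscle and between 6.27 and 6.52 in the liver, so this entry did not mark the muscle. The reason was not tested.

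Acetyl-CoA carboxylases make malonyl-CoA, the building unit of fatty acid synthesis (ACC1) and, at the mitochondrial surface, a brake on fatty acid entry (ACC2). ACC1tv2 was not well above background in any muscle fish, and ACC1tv1 was above it in 1 of 4 starved and 1 of 4 LLH fish. ACC2 had a mean log2 intensity of 6.43 ± 0.04 (SD, n = 4) in starved and 6.41 ± 0.10 in LLH fish. Its log2 difference of 0.01 lay within -0.11 to 0.13 (95% confidence interval, limma, adjusted P value 0.934). ACC2 was dim as well, with 25 to 75% of its spots well above background in each of these fish. Since the offset shrinks differences of dim sequences, the narrow interval does not show that its transcript was unchanged. With processed scanner signals the difference was 0.27, also not significant (limma, adjusted P value 0.572).

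The other sequences carry identifiers of assembled sequences or single reads, or in 2 cases a probe name, without gene names, and the extremes are therefore given by identifier. The largest increase was that of isotig01019, which stood at 15.87, 16.32, 15.78 and 15.65 in starved fish 1 to 4. In LLH fish 1 to 4 it stood at 8.42, 7.98, 11.07 and 9.52. All starved fish were at least 4.57 above all LLH fish, which in turn spread widely (SD 1.38, n = 4), as did HLL (1.07) and MHL fish (1.13). The fitted log2 difference was 6.43 with a standard error of 0.66, an 86.5-fold rise (limma, adjusted P value 1.19e-05). It was 7.10 without LLH fish 3 and as low as 5.59 with other processing (the authors' log2 ratios), and significant in both. The sequence isotig01021 came next, at 15.81 ± 0.36 in starved and 9.20 ± 1.36 in LLH fish and a log2 difference of 6.40 (adjusted P value 9.95e-06).

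These leading rises belonged to 1 run of identifiers. Among significant sequences, the 6 largest increases carried 6 consecutive numbers starting with isotig01019, with log2 differences between 6.33 and 6.43. The next largest significant increase was 4.31. In each starved and LLH fish the 6 values lay close together, from 15.25 to 15.65 in starved fish 4 and from 10.83 to 11.07 in LLH fish 3, for example. The number before the run differed by 0.02 and the number after it by -0.21. Isotigs are the transcript models of the assembly, and models that share contigs can represent variants of 1 gene, so the 6 sequences are not 6 independent observations.

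The largest decrease was that of isotig16003. It had log2 intensities of 9.59, 9.52, 9.08 and 8.86 in starved fish and 16.26, 15.99, 15.80 and 16.26 in LLH fish. The groups were separated by 6.21 and spread little (SD 0.35 and 0.23, n = 4). The log2 difference was -6.73 with a standard error of 0.29, a 106-fold fall (limma, adjusted P value 1.64e-08), and its 2 probes gave -7.33 and -6.14. The numbers on either side of it differed by 0.03 and -0.02.

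The next largest decrease, that of isotig09913, came with a wide spread in all fed groups (SD 1.96 in LLH, 1.28 in HLL and 2.26 in MHL fish, n = 4). Starved fish stood at 9.04, 9.41, 8.82 and 9.53, whereas LLH fish stood at 13.76, 16.59, 16.80 and 12.95. LLH fish 2 and 3 were high and LLH fish 1 and 4 low, and all lay above the starved fish. The log2 difference was -5.70 with a standard error of 1.06 (limma, adjusted P value 0.0012), and it narrowly missed significance when log ratios were fitted (-5.23, adjusted P value 0.0502). Without LLH fish 3 it was -4.87 and without LLH fish 4 it was -6.58.

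**Figure D3:**
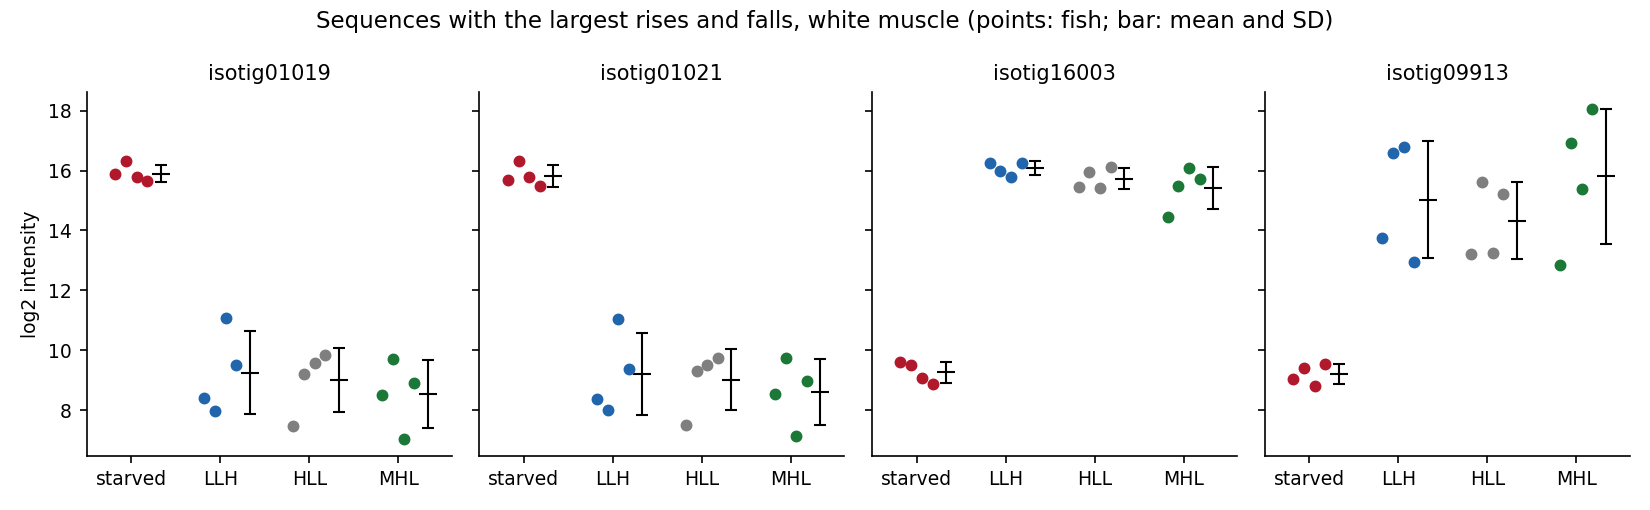
Log2 intensity (y axis) of the 2 sequences with the largest increases and the 2 with the largest decreases in starved against LLH muscle, by feeding group (x axis), with 1 point per fish and the mean and SD beside each group of 4. Starved fish of isotig01019 lie between 15.65 and 16.32 above every fed fish, and LLH fish of isotig09913 range from 12.95 to 16.80.

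Neighbouring identifiers moved together mainly among low numbers. Over pairs of isotigs with consecutive numbers, the correlation of the log2 differences was 0.72 among numbers up to 2500 (2451 pairs) and 0.10 above that. The lower range includes the run that starts with isotig01019. Pairs 10 numbers apart gave 0.04 and 0. The pairs share arrays and may share sequence, and the correlations are descriptions. Of the 759 isotigs at least 2-fold higher, that run included, 270 (35.6%) had a neighbour in number in the same set. Of the 637 at least 2-fold lower, 195 (30.6%) had one. Both sets were drawn from 19488 isotigs. With each isotig without a neighbour counted as a run of its own, the 759 formed 588 runs and the 637 formed 517. How many genes these sequences represent was not tested.

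By kind of sequence, 3038 of 19488 isotigs were higher (15.6%) and 2873 lower (14.7%). Among 5652 single reads that had entered no assembled sequence, 685 were higher (12.1%) and 506 lower (8.95%). Single reads were dimmer (median log2 intensity 6.45 against 7.11 for isotigs). Among sequences well above background in all 8 fish, 44.9% of isotigs and 36.9% of single reads were significant. Of 72 contigs, 3 were higher (4.17%) and 10 lower (13.9%), beside 14.8% higher and 13.4% lower over all sequences. The lower share of contigs was thus near that of all sequences, and the higher share rests on 3 contigs.

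The very brightest sequences leaned to lower values in starved fish. Of 163 sequences with a mean log2 intensity of at least 17, a limit chosen after their values were seen, 92 (56.4%) were significantly lower and 15 (9.20%) significantly higher, with a median log2 difference of -0.74 (limma, adjusted P value under 0.05). Over all sequences 13.4% were lower and 14.8% higher, and the median difference was -0.0018. In the brightest of the 10 sets (from 10.89 upwards), 858 of 2523 sequences were higher and 687 lower, so the lean did not hold there. Of the 163 sequences 82 were isotigs, and how many genes the 163 represent was not tested. All starved fish lay below all LLH fish in 24 of the 163 sequences. Most of the 92 lower ones thus had overlapping groups, whereas 79.8% of all significantly lower sequences had no overlap. Of 322 sequences at 16 or more, 38.8% were lower and 16.5% higher, with a median of -0.18. At the limit of 17 the counts moved with the processing. Quantile normalisation of all channels gave 26 lower and 24 higher with a median of -0.27, and median centring within arrays gave 25 and 22 with -0.27. Leaving out the dye term gave 38 and 11 with an unchanged median of -0.74, and log ratios gave 51 and 13 with -0.91. The median lay below 0 under each of these settings.

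Few sequences crossed the detection limit from 1 group to the other. In 40 sequences all 4 starved fish and none of the LLH fish were well above background. In 26 sequences the reverse held. Since these sets were picked by detection in 1 group alone, their differences are given only as sizes. The bright group exceeded the dimmer one, set at its own value or at the lowest signal well above background on the array, by at least 1.14-fold and 1.24-fold in the median of these sets. The highest of these bounds were 1.70-fold and 2.20-fold.

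The log2 differences of the 2 probes of a sequence had a correlation of 0.91 over all 24090 sequences whose probes both had values, as a description of probes read on the same arrays.

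The 2 arrays that paired the groups directly can be set beside the other fish, which share no animal with them. For mALT the direct arrays gave starved minus LLH log2 differences of 1.84 and 2.10, and the means of the remaining 2 starved and 2 LLH fish differed by 1.89. For isotig01019 the direct arrays gave 6.34 and 5.25, against 7.52 through the other fish. The LLH fish that shared an array with a starved fish, fish 3 and 4, were the higher ones for isotig01019 (11.07 and 9.52, against 8.42 and 7.98), and the part of the shared array in this was not tested. Across all 25222 sequences the direct and the other differences had the same sign in 71.5%, and in 81.4% of the 15279 well above background in all 8 fish. Their correlation over these 15279 sequences was 0.86, as a description of arrays normalised together.

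The other fed groups were set against the same starved fish. Starved fish differed from HLL fish in 4540 higher and 4246 lower sequences and from MHL fish in 4188 higher and 3596 lower (limma, adjusted P value under 0.05), against 3727 and 3389 for LLH. Since the 3 comparisons share the starved fish, these counts are given side by side without a test. The LLH and HLL groups, which shared no muscle array, were compared in the same fit. They differed in 64 sequences (0.254%), of which 46 were higher in LLH with a median log2 difference of 0.75, and 18 were lower with a median of -0.57. Log ratios gave 0, and no normalisation between arrays gave 1571, so this number is not well determined. Between LLH and MHL no sequence was significant by limma, and 1639 had an unadjusted P value under 0.05.

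**Figure D4:**
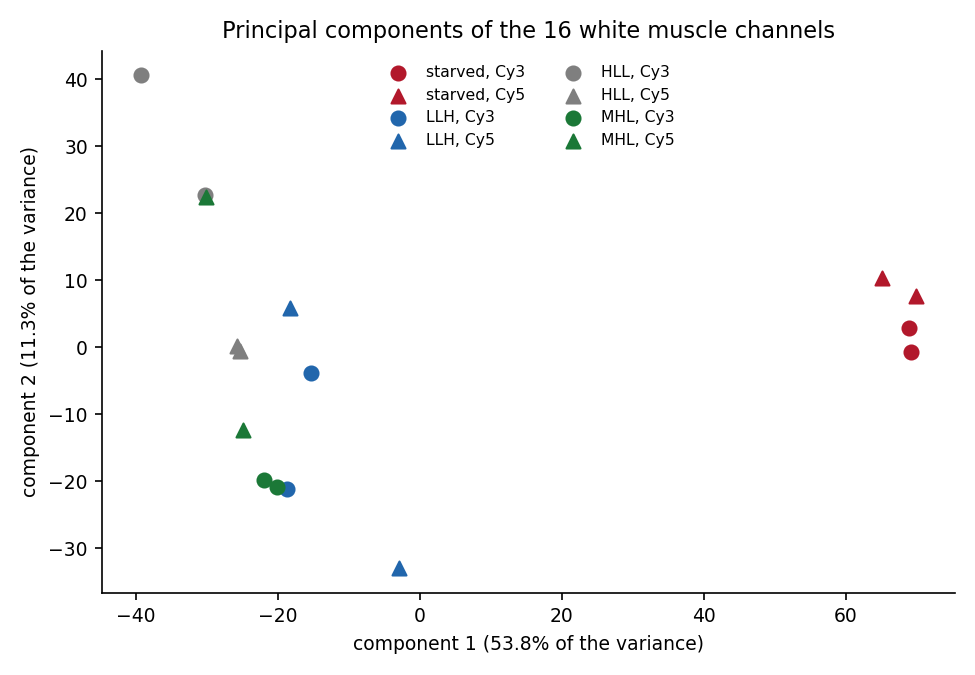
First principal component (x axis, 53.8% of the variance of log2 intensity) and second principal component (y axis, 11.3%) of the 16 muscle channels, with 1 point per fish, colours for feeding groups and shapes for dyes. Starved fish lie from 65.1 to 69.9 on the first component, LLH fish from -18.7 to -2.9, and HLL and MHL fish from -39.3 to -20.1.

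The first principal component of the muscle channels held 53.8% of the variance and set the starved fish apart, at 65.1 to 69.9. The LLH fish stood at -18.3, -18.7, -2.9 and -15.3, above all HLL fish (-39.3 to -25.4) and all MHL fish (-30.1 to -20.1). LLH fish 3 was the fed fish nearest to the starved ones. Without it, 3574 sequences were higher and 3243 lower in starved than in LLH muscle. LLH fish 3 and 4, the highest of their group on this component (-2.9 and -15.3), each shared an array with a starved fish. So did HLL fish 3 and 4 (-30.3 and -25.4, against -39.3 and -25.8 for HLL fish 1 and 2). The part of the shared array in these positions was not tested.

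On the log2 intensity scale mALT stood at 11.28 ± 0.13 in LLH, 11.10 ± 0.19 in MHL and 10.76 ± 0.17 in HLL fish (SD, n = 4), all below the starved fish. LLH exceeded HLL by 0.53 (95% confidence interval 0.31 to 0.75), which just missed the threshold over all sequences (limma, adjusted P value 0.0548), and it exceeded MHL by 0.17 (-0.04 to 0.38, adjusted P value 0.844). Starved fish were 2.45 above HLL and 2.09 above MHL. The corresponding values of isotig16003 were -6.55 and -6.16.

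The same contrast was examined in the liver of starved and LLH fish, in 1 limma fit over both tissues. The labels do not settle whether muscle and liver of same-numbered fish came from the same animal. The methods of the study name 4 fish per condition for both tissues and do not state how the fish numbers correspond. The fit held no term for the animal and treated the tissues as independent. Starved minus LLH differed between muscle and liver in 7587 of 25222 sequences (30.1%), of which 3850 were more positive in muscle and 3737 more negative. Each tissue lay on its own slide, so that tissue and slide cannot be told apart, although each slide held both groups. In this fit 7316 sequences were significant in muscle and 5994 in liver. The 2083 significant in both made up 28.5% of the muscle and 34.8% of the liver sequences, beside 23.8% of all sequences significant in liver and 29.0% in muscle, and 1076 of them had the same direction in both tissues. Of the 1007 with opposite directions, 457 were higher in starved muscle and lower in starved liver, and 550 the reverse.

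The rise of mALT was larger in muscle than in liver. Liver values on the log2 intensity scale were 13.66, 14.10, 13.96 and 13.72 in starved fish and 13.44, 13.49, 13.65 and 13.55 in LLH fish. The liver difference of 0.28 was not significant (limma, adjusted P value 0.157), and the muscle difference exceeded it by 1.66 (95% confidence interval 1.25 to 2.06, adjusted P value 5.38e-07). PKL showed a different pattern, with a significant fall of 0.90 on the log2 scale in the liver (limma, adjusted P value 8.41e-05) against -0.18 in muscle. The tissues differed in this by 0.72 (0.28 to 1.17, adjusted P value 0.0126). However, PKL was dim in muscle, where 50 to 100% of its spots were well above background in each starved and LLH fish. The offset added to the intensities shrinks differences of dim sequences, and its part in the tissue difference of PKL was not tested. In the liver cALT1 and cALT2 also fell significantly, with log2 differences of -0.85 and -0.88 (limma, adjusted P values 0.0156 and 0.0138), against -0.54 for both in muscle. For cALT1 the difference between tissues was 0.31 (-0.44 to 1.06, adjusted P value 0.597), so a difference between tissues was not shown.

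The leading muscle sequences had almost no liver signal. Spots of isotig01019 were well above background in 0 of 4 starved and 1 of 4 LLH livers, those of isotig16003 in 1 of 4 and 0 of 4, and those of isotig01021 and isotig09913 in no starved or LLH liver. This did not hold for large changes in general. Of the sequences at least 2-fold higher in starved muscle, 60 of 879 (6.83%) were above background in no starved or LLH liver, and of those at least 2-fold lower, 87 of 733 (11.9%) were. The share over all sequences was 18.9%. That share includes the dimmest sequences, among which no significant difference reached 2-fold, so these shares are not matched for signal.

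**Figure D5:**
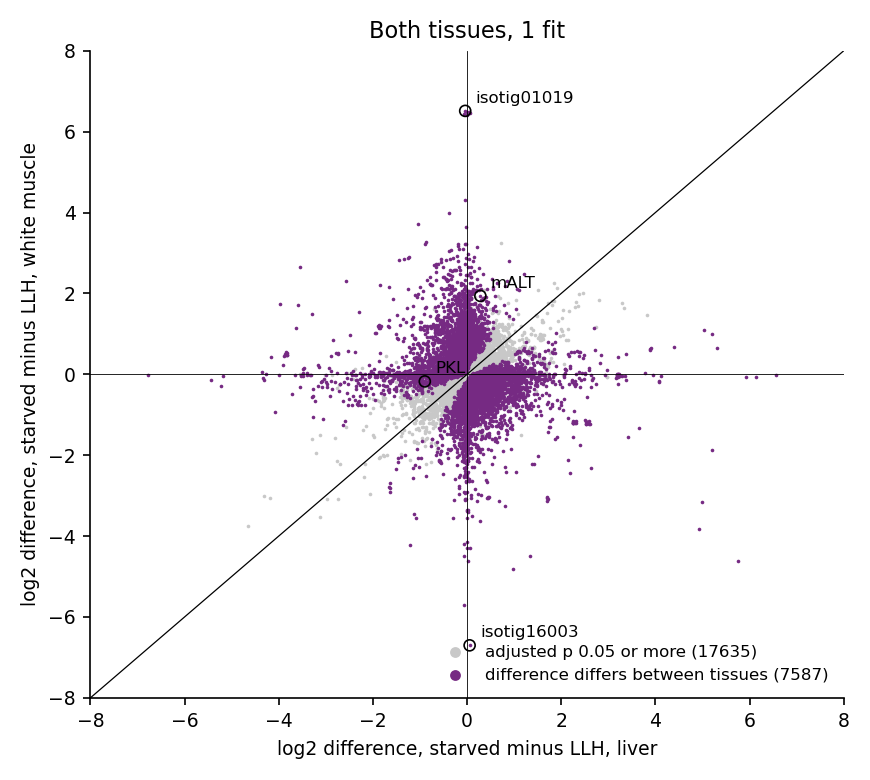
Log2 difference of starved minus LLH in the liver (x axis) and in white muscle (y axis) for 25222 sequences fitted together, with a line of equal change. Purple points are the 7587 sequences in which the difference differs between tissues, among them mALT, at 0.28 in the liver and 1.94 in muscle, and isotig01019, at -0.04 and 6.51.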

How the data were processed

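Total RNA of liver and white muscle was labelled and hybridised by the authors to custom Agilent arrays. For each array they deposited the intensity of each spot and its local background in both channels, intensities processed by Agilent Feature Extraction 10.7, and the log10 ratio of the channels. The authors also deposited normalised log2 ratios, with 49373 values per array, which is the number of probes and not of spots. Their rows were matched in reverse order of feature number (correlation with the scanner ratios of at least 0.80 on each array).

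Here R 4.3.3, limma 3.58.1 and statmod 1.5.0 were used. Median intensities were background-corrected (normexp, offset 50), the 1319 control spots were removed, spots with outlier flags were set to missing, and Loess and Aquantile normalisation were applied. Spots of a probe, then probes of a sequence, were averaged. Log2 intensities of the 16 muscle channels were fitted by group and dye, with array as a random block through the intraspot correlation (0.21, from 5000 sequences). Each test was two-sided, and P values were adjusted by the Benjamini-Hochberg method across the 25222 sequences tested. The fit was tested on simulated data, where the intraspot correlation ran higher than the value put in. A second estimator (duplicateCorrelation, 0.159) was therefore added as an alternative after the data had been seen. The Cy5 channel of 1 liver array, whose labels name both HLL and LLH, was left out.

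Members, lists and tests were chosen with earlier results of these data known. Named were the 8 sequences listed by symbol and, by size among non-overlapping, detected, significant sequences, the 2 with the largest increase and the 2 with the largest decrease. The planned pair with opposite changes in the tissues was not named, and planned gene and marker lists were not used, since assembly identifiers were not paired with genes here. Genome positions and probe sequences were not used. Same-numbered starved and LLH fish did not deviate together (correlations -0.18 to 0), so fish numbers were not taken as pairs. Alternatives covered the fit, dye term, background, normalisation, filters, probes, leaving out single fish, the normalised ratios of the authors and a replicate block.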

Additional observations from a re-analysis of the deposited data

Results flagged for a closer look

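In the test of the tissue difference (limma, both tissues in 1 fit), starved minus LLH was more positive in muscle than in liver for 3 enzymes. These were mALT by 1.66 (adjusted P value 5.38e-07), PKL by 0.72 (0.0126) and ACC1tv2 by 0.49 (0.0017). Muscle minus liver was 6.55 for isotig01019, 6.44 for isotig01021, -6.76 for isotig16003 and -5.63 for isotig09913. These isotigs were picked by their muscle difference and had almost no liver signal. Their tissue difference therefore repeats that choice, and only its size is given. For ACC1tv2 the muscle showed no signal well above background, and in the liver 4 of 4 LLH and 0 of 4 starved fish did. PKL was dim in muscle (6.92 to 7.38, against 9.02 to 10.44 in the liver), and the part of this in its tissue difference was not tested. Tissue and slide cannot be told apart in any of these.

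Among the 48 sets of 4 muscle fish formed by the 12 named sequences and 4 feeding groups, 1 had a fish far from the rest. ACC2 stood at 6.63 in HLL fish 4 and at 6.39 to 6.41 in the other HLL fish. Chance alone gives such a fish in about 5% of sets.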

How the results depend on the processing

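Fitting log ratios gave 2251 higher and 1912 lower sequences in starved than in LLH muscle, and 0 between LLH and HLL. Processed scanner signals gave 1564 at least 2-fold higher and 1514 lower, and median centring gave 1417 and 425. LLH and HLL differed in 1571 sequences without normalisation between arrays, 8 with only arrays carrying a starved or an LLH fish, and 4 with the authors' log2 ratios, which gave 4995 for the difference between tissues. LLH and MHL differed in 361 without normalisation between arrays, 3 without a dye term, 1 with quantile normalisation and 5 with the filter on dim probes. With fish number as a replicate block, which the check of pairing did not call for, 3622 sequences were higher, 3394 lower and 409 differed between LLH and HLL.

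Leaving out 1 starved or LLH fish gave 3175 to 3629 higher, 2789 to 3243 lower, 834 to 972 at least 2-fold higher, 700 to 798 at least 2-fold lower, 6990 to 7523 different between tissues, 17 to 81 between LLH and HLL and 0 to 7 between LLH and MHL. Without LLH fish 4 or 1, 17 and 22 differed between LLH and HLL, without starved fish 4, 42, and without starved fish 1 or 2, 7 and 1 between LLH and MHL.

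Under these alternatives mALT stayed between 1.76 and 2.29 and significant wherever tested. The difference of ACC2, which was 0.27 with processed signals and not significant under any setting, reversed to -0.03 with log ratios, without normalisation between arrays and on the 2 direct arrays, and to -0.04 with the brightest probe, and lay between -0.03 and 0.07 with a fish left out. The causes were not tested. Slide as a block was not run because each tissue lay on 1 slide, and a fit of only starved and LLH channels gives no value between diets. That fit, whose spread came from these groups alone, gave 3095 higher and 3004 lower sequences. In it the adjusted P value (limma) was 7.01e-05 for mALT and 7.81e-04 for isotig01019. An offset of 0 in place of 50 gave fewer significant sequences (3162 higher and 3092 lower) and more at least 2-fold different (1137 and 1043).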
